A study of Mus musculus with 37 samples.

Results

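The 10 genes described here are the Toll-like receptors *Tlr1*, *Tlr2*, *Tlr3*, *Tlr4*, *Tlr6*, *Tlr7*, *Tlr8* and *Tlr9* and the 2 genes for the co-receptors of TLR4, *Cd14* and *Ly96* (MD-2). They were chosen by symbol from a table of 24016 genes, and each symbol was found. All 10 had at least 100 scaled reads in a WT library, the minimum that 10487 genes of the table reached. They were followed in polyA RNA-seq of bone marrow-derived macrophages (BMDMs), which were grown from marrow of male mice 6 to 9 weeks old for 6 days with M-CSF. The cells came from WT mice or from *Arntl*-/- mice, which lack the clock protein Bmal1 throughout the body and were made on a C57BL/6 background (the strain label of all samples is C57BL/6J). In each genotype, RNA was taken at 0, 6, 24 and 48 h after addition of Kdo2-lipid A (KLA), the lipid A part of bacterial lipopolysaccharide and an agonist of TLR4. The sources used here name the WT mice in 2 ways, as littermates and as mice from a supplier, and do not say how many mice gave each library.

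Toll-like receptors (TLRs) are membrane proteins that recognize conserved molecules of microbes. TLR1, TLR2, TLR4 and TLR6 act at the cell surface on lipids and lipoproteins, and TLR3, TLR7, TLR8 and TLR9 act in endosomes on nucleic acids. TLR4 binds lipid A together with MD-2, with CD14 as an aid that transfers it, and then signals through the adaptors MyD88 and TRIF to NF-κB and interferon regulatory factors. Macrophages are among the cells that carry most of these receptors.

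With 1 library for each condition, a difference between 2 libraries has no replicate check and no p-value, and the tests that could be run treat the times or the genotypes as pairs. The 8 libraries held 8587560 to 27036783 reads on genes, the most in WT cells at 6 h. Levels are FPKM per 10000000 reads (reads per kb of exon), divided by a size factor for each library, and intervals are exact 95% Poisson intervals of the reads, which cover counting error only. A difference was counted when it was at least 1.5-fold, computed as log2(scaled FPKM + 0.1), and the share of the 10487 genes past the same line is given beside the counts. *Arntl* was 32.3 to 38.7 in WT and 11.3 to 20.2 in *Arntl*-/- libraries, without overlap. Of 8 listed macrophage markers 7 were in the table, *Emr1* (F4/80), *Csf1r* and *Lyz2* among them, and summed to 18455, 13630, 23836 and 34703 in WT and 15479, 18247, 22381 and 30267 in *Arntl*-/- libraries at 0, 6, 24 and 48 h, so they were highest at 48 h in both. T cell, dendritic cell and mast cell markers summed to at most 4.32, with *Cd3e*, *Cd3g*, *Fcer1a* and *Mcpt4* at 0 throughout. Neutrophil markers summed to 509, 537, 604 and 928 in WT and 900, 1014, 834 and 943 in *Arntl*-/- libraries at 0, 6, 24 and 48 h, with *Mpo* at 0. Of these, *S100a9* was 164, 207, 148 and 10.1 (WT) against 403, 428, 371 and 9.00 (*Arntl*-/-) at the same times. From 24 to 48 h it fell while the sum rose in both genotypes, so *S100a9* does not stand for the list. Stromal markers summed to 387, 476, 534 and 1076 and to 302, 334, 354 and 662, also highest at 48 h. B cell markers summed to 21.2 to 37.0 and 28.1 to 60.2, mostly *Cd79b*. The part of these markers in the results was not tested, and in bulk RNA a change in the number of cells of a type and a change in RNA per cell cannot be told apart.

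*Tlr1* and *Tlr6*, the partners of TLR2 for triacylated and diacylated lipoproteins, lie next to each other on the minus strand (mm9 chr5:65315919-65323938 and chr5:65344334-65351273) and share sequence, which bears on every value of theirs. Of the distinct 50-base windows of the annotated coding transcripts, 454 were found in both genes, which is 17.4% of those of *Tlr1* and 17.8% of those of *Tlr6*. The longest identical run was 229 bases, coding bases 1468 to 1696 of *Tlr1* (chr5:65316776-65317004) and 1507 to 1735 of *Tlr6* (chr5:65345067-65345295). Reads that lie wholly inside it cannot be assigned to either gene by sequence alone, so the split of reads between the pair is uncertain. The run is shown because it limits what can be said of *Tlr6*, and it has no capitals because every base is shared.
Tlr1 and Tlr6: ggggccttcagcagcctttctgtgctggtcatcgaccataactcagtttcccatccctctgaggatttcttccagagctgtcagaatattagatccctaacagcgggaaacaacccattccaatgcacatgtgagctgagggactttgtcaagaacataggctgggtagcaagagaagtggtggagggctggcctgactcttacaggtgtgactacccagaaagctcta

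Sequence before the start sites was read from mm9 for the 10 genes (250 bases upstream of the start of the transcript in the deposited table) and compared with 23954 promoters of the table. The searched motifs were those of the factors that the study was about or that act in TLR signaling. They were the E-box CACGTG, to which Bmal1 binds with CLOCK, the NF-κB motif GGANTTTCC, the interferon-stimulated response element GAAANNGAA, the PU.1 motif GAGGAA, the AP-1 motif TGANTCA and the ROR element AGGTCA, which ROR and REV-ERB receptors bind. GGANTTTCC is a narrow form, and the wider NF-κB consensus was searched as well, which was added after the promoters were seen. Both strands were searched, and the matches that overlapped each other in the 10 genes were those of the NF-κB motifs in *Tlr3* and 2 of the wider consensus in *Tlr2*. The E-box was found in *Tlr1* alone among the 10 and in 6.58% of all promoters. The NF-κB motif was in *Tlr3* and in 1.11% of all promoters, and the wider consensus in *Tlr2* and *Tlr3* and in 4.08%. The PU.1 motif was in *Tlr3*, *Tlr4*, *Tlr8*, *Tlr9* and *Ly96* and in 22.7% of all promoters. AP-1 was in *Tlr9* and *Cd14* and in 6.15%, the ROR element was in *Tlr2* and *Tlr9* and in 12.4%, and the interferon element was in none of the 10 and in 7.04% of all promoters. A match is a description of the letters and does not show that a factor binds there.

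Of the promoters, 4 are shown in transcript orientation, 5′ to 3′, with the matches in capitals (on the other strand the PU.1 motif reads TTCCTC and the ROR element TGACCT). *Tlr1* holds the E-box, *Tlr4* encodes the receptor of KLA, and *Tlr2* and *Tlr9* were the TLR genes whose level moved most. In mm9 the promoter of *Tlr1* is at chr5:65323939-65324188 (minus strand), that of *Tlr2* at chr3:83645531-83645780 (minus), that of *Tlr4* at chr4:66488595-66488844 (plus) and that of *Tlr9* at chr9:106124679-106124928 (plus).
Tlr1: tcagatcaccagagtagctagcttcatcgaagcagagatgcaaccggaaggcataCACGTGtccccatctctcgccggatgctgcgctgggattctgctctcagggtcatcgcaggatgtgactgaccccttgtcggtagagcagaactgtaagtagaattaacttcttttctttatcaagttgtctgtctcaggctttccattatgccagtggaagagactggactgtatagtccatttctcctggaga
Tlr2: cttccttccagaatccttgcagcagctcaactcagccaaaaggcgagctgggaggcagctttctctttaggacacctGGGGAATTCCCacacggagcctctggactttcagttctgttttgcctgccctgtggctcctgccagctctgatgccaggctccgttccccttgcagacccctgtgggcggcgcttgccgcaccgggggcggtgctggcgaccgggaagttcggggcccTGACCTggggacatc
Tlr4: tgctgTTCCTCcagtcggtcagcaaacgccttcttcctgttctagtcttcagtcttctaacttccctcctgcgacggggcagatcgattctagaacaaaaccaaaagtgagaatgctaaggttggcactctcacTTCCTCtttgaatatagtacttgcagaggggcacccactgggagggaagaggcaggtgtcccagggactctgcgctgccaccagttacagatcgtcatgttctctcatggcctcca
Tlr9: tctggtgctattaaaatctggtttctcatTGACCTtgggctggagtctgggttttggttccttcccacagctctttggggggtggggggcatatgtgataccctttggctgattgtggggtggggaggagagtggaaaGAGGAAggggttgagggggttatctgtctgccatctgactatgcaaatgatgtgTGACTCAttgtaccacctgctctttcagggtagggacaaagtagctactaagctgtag

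KLA acts through TLR4, and the mRNA of the receptor itself (mm9 chr4:66488845-66503830, plus strand) varied little. Over the times 0, 6, 24 and 48 h, the order used for every series of values that follows, *Tlr4* had WT values of 165, 159, 189 and 162, and its *Arntl*-/- values were 182, 184, 192 and 146. The lowest and the highest of these 8 values were both from *Arntl*-/- cells and differed 1.31-fold, and the ranges of the genotypes overlapped. No difference of *Tlr4* reached 1.5-fold, and the SD of its log2 level over the 8 libraries was at the 15.9th percentile of the genes analyzed. *Ly96* (chr1:16678537-16699686, plus strand), the gene for the MD-2 subunit that holds the lipid, was 106, 124, 120.1 and 104 over the 4 WT times and 124, 115, 121 and 129 without *Arntl*. None of its differences reached 1.5-fold either. These values came from 75 to 328 reads on a listed transcript of 542 bases, and at 48 h the interval of the log2 difference between the genotypes ran from -0.14 to 0.78. The level of *Ly96* per length was 0.62 to 0.88 of that of *Tlr4* in the 8 libraries, highest in *Arntl*-/- cells at 48 h.

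*Cd14* (mm9 chr18:36884718-36886469, minus strand), which encodes the surface protein that transfers lipopolysaccharide to TLR4 and MD-2, was the highest of the 10 genes in every library and at the 99.49th percentile of all genes of the table or higher. Its WT values were 1706, 1458, 2799 and 2919. The *Arntl*-/- libraries gave 1513, 2113, 2586 and 3323. The values at 24 and 48 h were above those at 0 and 6 h in both genotypes, and the direction at 6 h differed, with a value below that at 0 h in WT and above it in *Arntl*-/- cells. Against 0 h, *Cd14* was 1.64-fold and 1.71-fold higher at 24 and 48 h with *Arntl*, and 1.71-fold and 2.20-fold higher without it. *Cd14* per *Tlr4* (levels per length) was 10.4, 9.16, 14.8 and 18.1 in WT and 8.31, 11.5, 13.5 and 22.7 in *Arntl*-/- libraries, highest at 48 h in both. The level correction described below was not applied to these ratios. Under it the log2 difference of *Cd14* from 0 h in WT cells was larger at 24 h (0.56) than at 48 h (0.26).

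The libraries differed in a way that depended on how highly a gene was expressed, and *Cd14* lies in the range where this was largest. There were 65 genes at or above its mean log2 level, *Cd14* included. In WT cells their median log2 difference from 0 h was -0.57 at 6 h, 0.18 at 24 h and 0.66 at 48 h, and that of *Cd14* was -0.23, 0.71 and 0.78. In *Arntl*-/- cells the medians were 0.24, 0.23 and 0.85, and *Cd14* was 0.48, 0.77 and 1.13. *Cd14* was thus above the median of these genes at all times, and by most at 24 h in both genotypes. The summed macrophage markers, whose genes are also highly expressed, were 1.88-fold and 1.96-fold those at 0 h at 48 h (WT and *Arntl*-/-), beside 1.71-fold and 2.20-fold for *Cd14*, and their part in its values was not tested. When a lowess curve of each library's deviation against mean level was subtracted, the log2 difference of *Cd14* was 0.35, 0.56 and 0.26 in WT and 0.22, 0.56 and 0.39 in *Arntl*-/- cells, and none reached 1.5-fold. The table's header names a setting of 3 tags per position. A strict limit of that kind on both strands would allow 6 reads per base of exon, and *Cd14* had 3.62 to 7.12, above it in WT cells at 6 h and *Arntl*-/- cells at 24 h (6.48). In a library 20 to 100 genes were above 6. The part of the setting in the values was not tested.

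**Figure D1:**
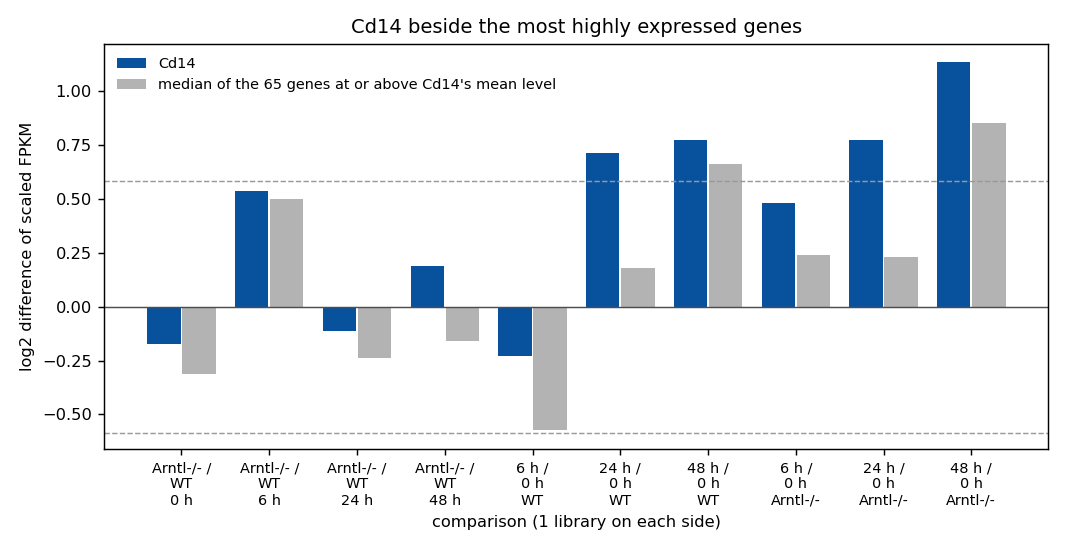
Log2 difference of scaled FPKM for *Cd14* (blue) and the median of the 65 genes at or above its mean level (gray) in the 10 comparisons, each between 2 libraries. Dashed lines mark 1.5-fold. The blue and gray bars are nearly equal for *Arntl*-/- against WT at 6 h (0.54 and 0.50) and farthest apart at 24 h against 0 h in both genotypes.

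*Tlr2* (chr3:83640194-83645530, minus strand), the surface receptor for bacterial lipoproteins, had the largest change of the 10 genes. WT cells had 284, 414, 989 and 605. The *Arntl*-/- cells had 274, 459, 905 and 640.3. In both genotypes the value was lowest at 0 h and highest at 24 h, and the intervals of these values did not overlap. Against 0 h it was 1.46-fold, 3.48-fold and 2.13-fold higher in WT, while the *Arntl*-/- folds were 1.68, 3.31 and 2.34. The level-corrected log2 difference was 1.74 at 24 h in WT and 1.62 in *Arntl*-/- cells, close to the uncorrected 1.80 and 1.73. At 6 h the side of the 1.5-fold line depended on the scaling in WT cells, with a log2 difference of 0.54, 0.70 as deposited and 0.74 after level correction. *Tlr2* went from the 90.6th to the 98.3rd percentile of all genes between 0 and 24 h in the WT series, and from the 90.4th to the same 98.3rd in the other.

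The genes for the partners of TLR2 had other profiles over time. *Tlr1* was 198, 204, 173 and 163 over the 4 WT times and 201, 171, 182 and 197 over the *Arntl*-/- ones. It changed by less than 1.5-fold in every comparison, and its SD over the libraries was at the 11.1th percentile. For *Tlr6* the WT libraries gave 64.3, 65.1, 79.6 and 64.1, and the *Arntl*-/- libraries 68.5, 80.0, 71.1 and 111. Of these 8 values, 7 lay between 64.1 and 80.0, and the library of *Arntl*-/- cells at 48 h stood above them. Its value was 1.73-fold that of WT cells at 48 h (log2 0.79, interval 0.55 to 1.04, from 370 and 222 reads) and 1.62-fold that of *Arntl*-/- cells at 0 h (log2 0.70, and 0.52, short of the line, as deposited). The summed level of *Tlr1* and *Tlr6*, which does not depend on the split of reads between them apart from the lengths of the transcripts, was 227 and 308 in WT and *Arntl*-/- cells at 48 h, and 251 to 269 in the other 6 libraries. *Tlr2* per *Tlr1* (levels per length) thus went to 5.73 at 24 h from 1.43 at 0 h with *Arntl*, and to 4.98 from 1.36 without it.

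**Figure D2:**
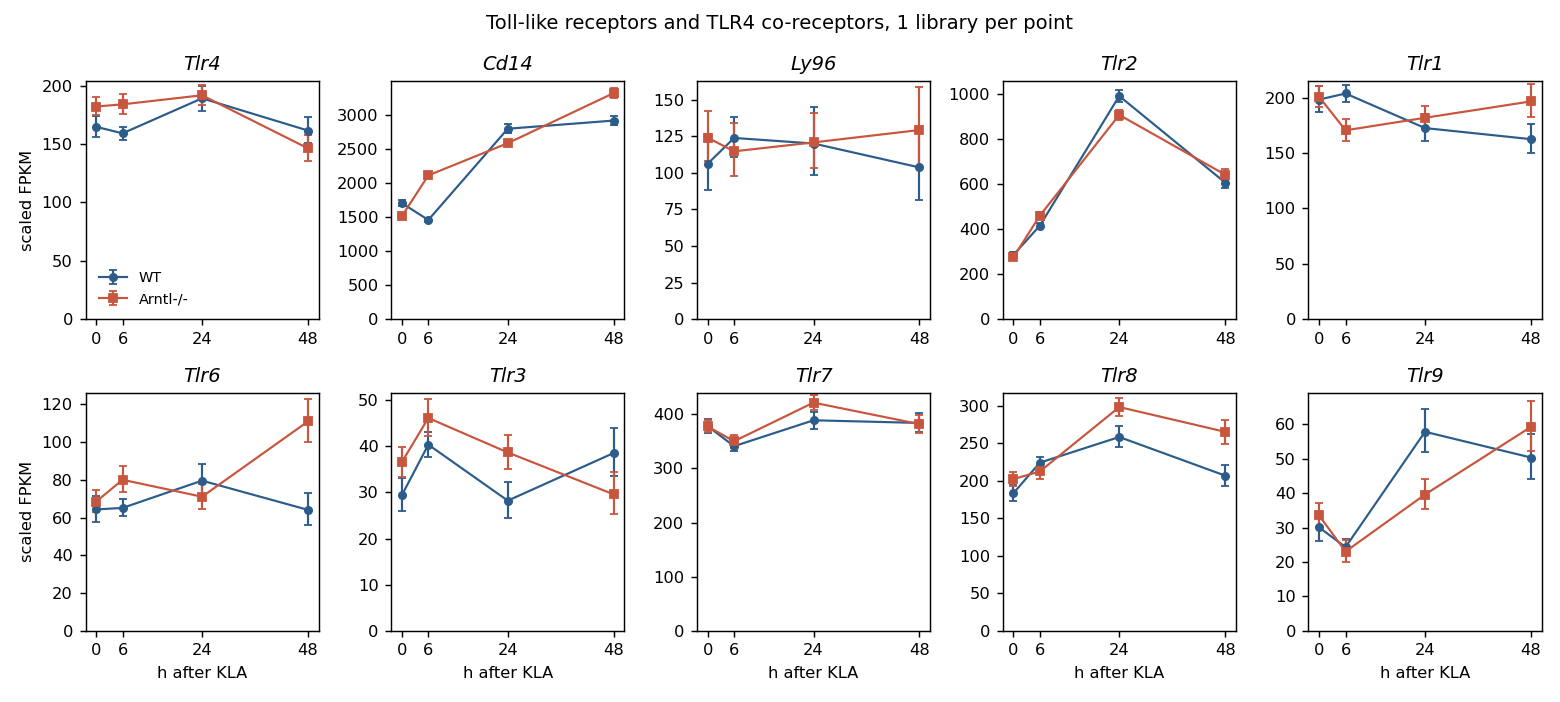
Scaled FPKM of the 10 genes against time after KLA in WT (blue circles) and *Arntl*-/- (red squares) BMDMs, with 1 library at each point, an axis of its own for each gene and bars for 95% Poisson intervals (counting error only). *Tlr2* peaks at 24 h in both genotypes (989 and 905), *Tlr6* stands apart in *Arntl*-/- cells at 48 h (111), and *Tlr4*, *Tlr7* and *Ly96* stay nearly level.

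Among the endosomal receptors, *Tlr7*, which senses single-stranded RNA, was the steadiest of the 10 genes. The WT values were 378, 341, 389 and 384 and the *Arntl*-/- values 378, 350.3, 422 and 382, a 1.24-fold range, and its SD was at the 3.47th percentile of the genes analyzed. *Tlr8*, its neighbour on the X chromosome (mm9 chrX:163680664-163701720, beside *Tlr7* at chrX:163742858-163768503, both on the minus strand), had WT values of 183, 224, 258 and 207 and *Arntl*-/- values of 202, 212, 298 and 265. It was highest at 24 h in both genotypes, 1.41-fold and 1.47-fold above 0 h, short of the line. *Tlr3* (chr8:46481019-46495893, minus strand), the receptor for double-stranded RNA that signals through TRIF, gave 29.4, 40.3, 28.2 and 38.5 in the WT series and 36.6, 46.1, 38.7 and 29.6 in the other, from 164 to 851 reads. Its ranges overlapped between the genotypes and no difference reached 1.5-fold. The largest, 0.46 at 6 h in WT cells, was 0.61 and past the line as deposited.

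*Tlr9* (chr9:106124929-106129207, plus strand), the receptor for unmethylated CpG DNA, had the lowest level of the 10 genes in 3 libraries and the widest relative range after *Tlr2*. Its WT values were 30.1, 24.3, 57.9 and 50.4, and the *Arntl*-/- cells had 33.5, 23.0, 39.6 and 59.3. The value at 6 h was the lowest of each genotype, and the value at 48 h was above that at 0 h in both. Against 0 h, WT cells had 1.92-fold more at 24 h and 1.67-fold more at 48 h. The folds in *Arntl*-/- cells were 1.18 and 1.77, so that the line was passed at 48 h alone. Between the genotypes at 24 h its log2 difference was -0.55 (interval -0.77 to -0.33, from 344 and 336 reads), just inside the line, and -0.59 after level correction, just past it. Whether the time course differed between the genotypes was not tested, as there is 1 library at each point.

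Within a library, the order of the levels per length was much alike at all times. *Cd14* was first, *Tlr2* and *Tlr7* took places 2 and 3, *Tlr1*, *Tlr4* and *Tlr8* took places 4 to 6, *Ly96* and *Tlr6* places 7 and 8, and *Tlr3* and *Tlr9* came last. *Tlr7* was above *Tlr2* at 0 h in both genotypes and below it in the other 6 libraries. Neighbours whose intervals overlapped at 0 h in WT cells were *Tlr1* and *Tlr8* (187 to 210.2 and 173 to 194), *Tlr8* and *Tlr4* (156 to 174 for *Tlr4*) and *Tlr9* and *Tlr3* (26.2 to 34.3 and 26.0 to 33.1), so their order is not set by these reads. In *Arntl*-/- cells at 48 h the intervals of *Ly96* and *Tlr6* also overlapped (104 to 159 and 99.9 to 123).

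The mixture of the 8 TLR mRNAs differed between the times after KLA, mostly in the part of *Tlr2*. The summed level of the 8 TLR genes was 1333, 1472, 2164 and 1673 in WT and 1375, 1525, 2148 and 1830 in *Arntl*-/- libraries, highest at 24 h in both. *Tlr2* made up 21.3, 28.1, 45.7 and 36.2% of it in WT and 19.9, 30.1, 42.1 and 35.0% in *Arntl*-/- cells. *Tlr7* went the other way, to 17.98% at 24 h from 28.4% at 0 h with *Arntl*, and to 19.6% from 27.5% without it, with a level of its own that stayed nearly the same. The 4 surface receptors together were 53.4% of the sum at 0 h and 66.1% at 24 h in WT cells, against 52.7% and 62.8% without *Arntl*. These sums leave out *Tlr13*, an endosomal receptor that is not among the 10 genes and had a high level (its values follow). With it in the sum, *Tlr2* was 14.3% at 0 h and 37.3% at 24 h in WT and 13.8% and 34.4% in *Arntl*-/- cells, and the surface receptors were 35.8% and 53.9% in WT and 36.7% and 51.2% without *Arntl*.

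**Figure D3:**
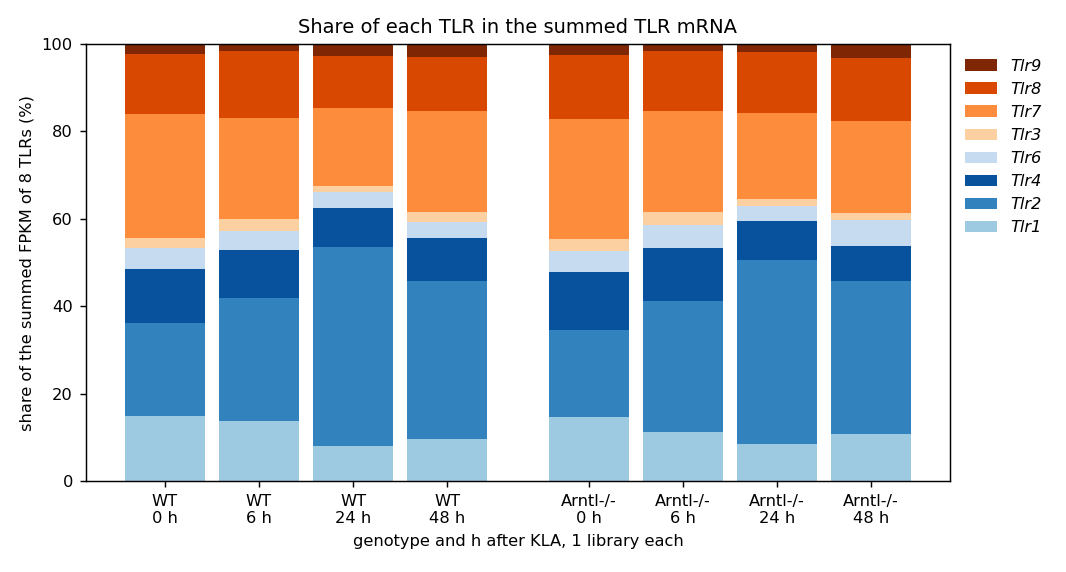
Share of each of the 8 TLR genes in their summed scaled FPKM, in percent, for the 8 libraries. Surface receptors are in blue and endosomal receptors in orange and brown, and the *Tlr2* part grows from 21.3 to 45.7% in WT and to 42.1% from 19.9% without *Arntl* between 0 and 24 h.

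Against 0 h in WT cells, none of the 10 genes passed 1.5-fold at 6 h, where 5.36% of all genes analyzed were higher and 3.59% lower by as much. At 24 h, *Tlr2*, *Tlr9* and *Cd14* were higher (3 of 10, against 8.69% of all genes), and none was lower (against 8.83%). At 48 h the same 3 genes were higher (against 13.5%) and none was lower (against 15.1%). After level correction both counts were 2, without *Cd14*. In *Arntl*-/- cells, *Tlr2* was higher at 6 h (1 of 10, against 3.09%), *Tlr2* and *Cd14* at 24 h (2 of 10, against 7.8%), and *Tlr2*, *Tlr6*, *Tlr9* and *Cd14* at 48 h (4 of 10, against 15.2%). The last count was 3 as deposited, without *Tlr6*, and 3 after level correction, without *Cd14*, which also left 1 at 24 h. None was lower at these times, where 3.39, 9.57 and 17.2% of all genes were. The median log2 difference of the 10 genes from 0 h was 0.03, 0.25 and 0.10 at 6, 24 and 48 h in WT and 0.04, 0.12 and 0.23 in *Arntl*-/- cells, and that of all genes lay between -0.03 and 0.01. The 3 comparisons of a genotype share its library at 0 h. At 48 h the summed stromal markers were 2.78-fold (WT) and 2.19-fold (*Arntl*-/-) those at 0 h, and the part of the markers in these counts was not tested.

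Between the genotypes, 1 difference of the 10 genes passed the line, that of *Tlr6* at 48 h. At 0 h none passed 1.5-fold, where 3.19% of all genes were higher and 1.98% lower in *Arntl*-/- cells, and the log2 differences of the 10 ran from -0.17 (*Cd14*) to 0.31 (*Tlr3*). At 6 h none passed either, against 2.03% higher and 2.64% lower, and the differences ran from -0.26 (*Tlr1*) to 0.54 (*Cd14*). The 65 genes at or above the level of *Cd14* had a median of 0.50 in that comparison, and the level-corrected difference of *Cd14* was 0.01. At 24 h none passed, against 3.59% higher and 3.11% lower, with a range from -0.55 (*Tlr9*) to 0.45 (*Tlr3*). At 48 h *Tlr6* was higher (1 of 10, against 5.74% of all genes) and none was lower (against 5.91%), with a range from -0.38 (*Tlr3*) to 0.79 (*Tlr6*). The median of the 10 was 0.12, 0.09, 0.01 and 0.21 at 0, 6, 24 and 48 h, and that of all genes was between -0.02 and 0.01. For every one of the 10 genes the range over the 4 WT libraries overlapped that over the 4 *Arntl*-/- libraries. None of the 10 was on the same side of WT at all 4 times, except that after level correction *Cd14* was above WT at each (by 0.14, 0.01, 0.14 and 0.27). No share of all genes is given beside the overlap or the side, so neither sets the 10 apart from other genes. Single marker genes of other cells differed by more at some times. The log2 difference of *S100a9* was 1.30, 1.04, 1.32 and -0.17 at 0, 6, 24 and 48 h, and that of *Col1a1* was -0.86 at 48 h. The neutrophil list as a whole did not follow *S100a9*, with sums of 604 and 928 in WT and 834 and 943 in *Arntl*-/- cells at 24 and 48 h. The part of these markers in the values of the 10 was not tested.

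**Figure D4:**
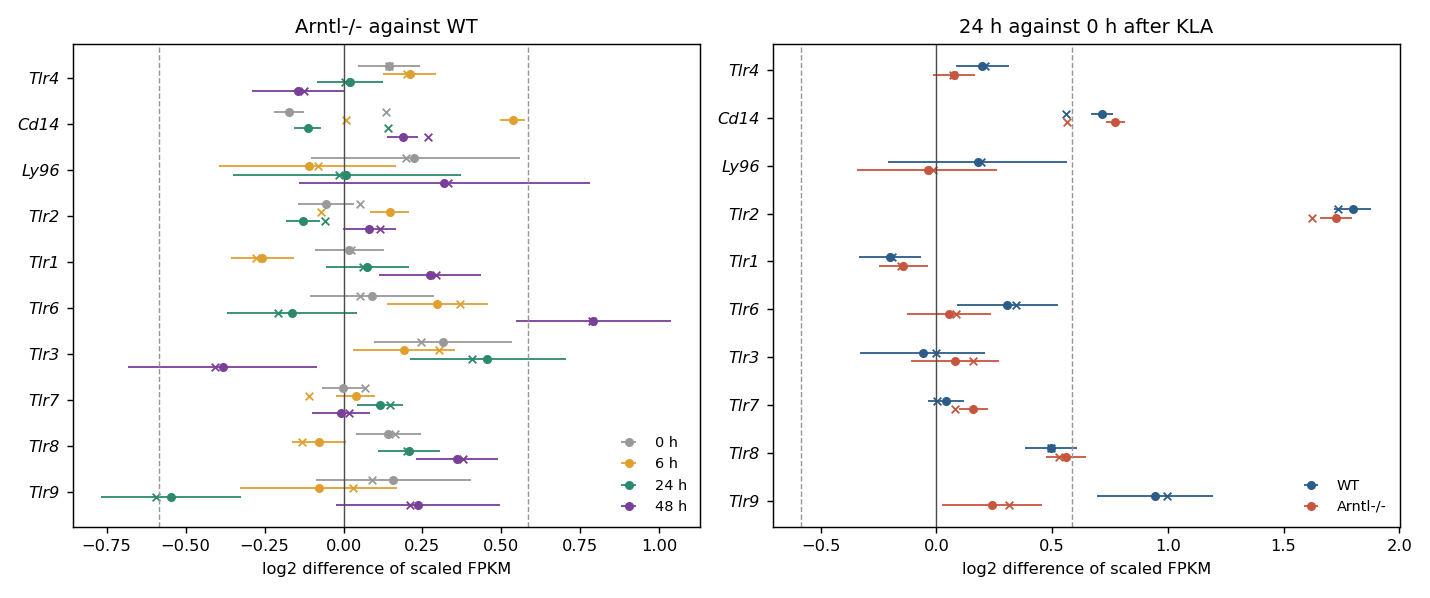
Log2 difference of scaled FPKM for *Arntl*-/- against WT at 4 times (left) and for 24 h against 0 h in each genotype (right). Circles with bars give the difference and its 95% interval from the reads (counting error only), crosses the level-corrected difference, and dashed lines 1.5-fold. *Tlr6* at 48 h (0.79) is the one circle past the line on the left, and *Tlr2* is the farthest on the right (1.80 and 1.73).

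The values at 4 times in 2 genotypes allow one fit with tests, in which limma estimated an effect of genotype and an effect of each time together over the 10487 genes (3 residual degrees of freedom). It takes the genotype difference as the same at every time and the response to KLA as the same in both genotypes, so it cannot show a difference between time courses. Its error is the spread left between libraries, with times and genotypes in the place of replicates. The p-values therefore do not measure variation between mice or cultures. *Tlr2* was higher than at 0 h at 6, 24 and 48 h, by 0.64 ± 0.12, 1.76 ± 0.12 and 1.16 ± 0.12 on the log2 scale (± SE, adjusted p = 0.029, 1.2e-05 and 3.5e-05). At 24 and 48 h this held under every scaling and pseudocount and without any 1 library, while the adjusted p at 6 h was above 0.05 without any 1 of the 6 libraries at 0, 6 and 24 h (up to 0.38). *Tlr8* was higher at 24 h by 0.53 ± 0.12 (adjusted p = 0.015), and above 0.05 without any 1 of the libraries at 0 or 24 h (up to 0.13). At 48 h *Tlr9* was higher by 0.78 ± 0.24 (adjusted p = 0.025, 0.089 as deposited) and *Cd14* by 0.95 ± 0.29 (adjusted p = 0.023, and 0.33 with adjusted p = 0.0074 after level correction). The adjusted p of *Tlr9* was above 0.05 without either library at 0 h or the *Arntl*-/- library at 48 h (up to 0.17), and that of *Cd14* without any 1 of the libraries at 0, 24 and 48 h (up to 0.29). At 24 h *Cd14* had 0.74 ± 0.29 (adjusted p = 0.11, but 0.015 as deposited and 0.0011 after level correction) and *Tlr9* 0.59 ± 0.24 (adjusted p = 0.12). Thus 1, 2 and 3 of the 10 genes were higher at 6, 24 and 48 h, against 1.09, 7.9 and 17% of all genes, and none was lower, against 0.0954, 7.41 and 18.1%. The count at 24 h was 3 as deposited and after level correction, with *Cd14*, and that at 48 h was 2 as deposited, without *Tlr9*.

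Over the 4 times together, none of the 10 genes passed the test between the genotypes in this fit, where 0.172% of all genes were higher and 0.133% lower in *Arntl*-/- cells (902 of all genes, and none of the 10, had an unadjusted p under 0.05). The smallest adjusted p of the 10 was 0.69, of *Tlr8*, with a mean log2 difference of 0.16 ± 0.18 (SD over 4 times). *Tlr6* had the largest mean, 0.25 ± 0.40 (adjusted p = 0.71), which was 0.07 without the libraries at 48 h. The means of the other 8 genes lay between -0.06 (*Tlr9*) and 0.14 (*Tlr3*). An exact two-sided sign-flip test over the 4 pairs cannot go below p = 0.125, and the smallest p among the 10 genes was 0.25 (*Tlr8*). The count of 0 at an adjusted p under 0.05 was the same under each scaling and pseudocount and without any 1 time. Under an unadjusted p of 0.05, *Cd14* passed after level correction (0.14 ± 0.05 SE, adjusted p = 0.45), *Tlr8* without the libraries at 6 h and *Tlr6* without those at 24 h. In these settings 1032, 1705 and 591 of the 10487 genes passed as well, so 1 of 10 in each does not set these genes apart.

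The stimulus was visible in genes that KLA is known to induce. Of 8 such genes analyzed, 6 (*Il1b*, *Nos2*, *Cxcl10*, *Ccl5*, *Ifit1* and *Rsad2*) were past 1.5-fold at 6, 24 and 48 h against 0 h in WT cells, where 5.36, 8.69 and 13.5% of all genes were higher. The same 6 were at 6 and 24 h in *Arntl*-/- cells (against 3.09 and 7.8%), and 5 of them, without *Cxcl10*, at 48 h (against 15.2%). Of the other 2, *Tnf* was 508, 631, 468 and 491 in WT and 605, 785, 522 and 425 in *Arntl*-/- cells, and passed in none of these comparisons before level correction, after which it was lower at 48 h without *Arntl* (-0.78). *Saa3*, an acute-phase gene, was 5559, 3293, 6366 and 8010 in WT and 3035, 4878, 5967 and 7693 in *Arntl*-/- cells. It was past the line on the lower side at 6 h in WT cells (-0.76) and on the higher side at all 3 times in *Arntl*-/- cells, and after level correction passed at 24 h in *Arntl*-/- cells alone. *Il1b* was 46.2, 162, 594 and 428 in WT and 92.1, 199, 707 and 699 in *Arntl*-/- cells. Of the 6 genes, *Il1b* alone was highest at 24 h, as *Tlr2* was, in both genotypes. *Cxcl10* was highest at 6 h in both, *Nos2*, *Ifit1* and *Rsad2* at 48 h in both, and *Ccl5* at 48 h in WT and at 6 h in *Arntl*-/- cells.

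Of the TLRs outside the 10, *Tlr13*, a mouse receptor for bacterial ribosomal RNA, was 653, 518, 491 and 576 in WT and 602, 547, 486 and 543 in *Arntl*-/- cells. It was thus above each of the 8 TLR genes at 0 and 6 h, and below *Tlr2* at 24 and 48 h. None of its differences reached 1.5-fold. *Tlr5* had 17, 22 and 20 reads at 0, 6 and 24 h in WT and 26 at 0 h in *Arntl*-/- cells, at most 5 in the other 4 libraries, and a level of at most 3.74. *Tlr11* had at most 2 reads and *Tlr12* at most 3, which is not above the floor of 3 reads. None of these 3 genes reached 100 scaled reads, and they were left out of the counts.

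Chaperones and accessory proteins of the TLRs were followed from a list of 16 genes, of which 14 were analyzed. *Unc93b1*, which carries the endosomal TLRs out of the endoplasmic reticulum, was 988 to 1652 in WT and 1117 to 1722 in *Arntl*-/- libraries, above every endosomal TLR among the 10 (levels per length). At 6 h against 0 h in WT cells 1 of 14 was higher (*Ly86*, against 5.36% of all genes) and 2 were lower (*Ctsb* and *Ctss*, neither after level correction, against 3.59%), and none passed in *Arntl*-/- cells. Against 0 h, *Ly86* (MD-1, the partner of the TLR4 homolog CD180) and *Ctsk* (cathepsin K) were higher at 24 h in WT cells, 2 of 14 (against 8.69%) with none lower, and none passed in *Arntl*-/- cells (against 7.8% higher and 9.57% lower). In the latter, *Ly86* was just inside the line (0.56) and past it after level correction (0.61), and the scavenger receptor gene *Cd36* was -0.56 and, on the lower side, -0.69. *Ly86* was 24.3, 40.7, 76.6 and 47.7 in WT and 49.2, 60.8, 72.6 and 72.3 in *Arntl*-/- cells, and the log2 difference between the genotypes at 0 h was 1.01. At 48 h, 6 of 14 were higher in WT cells (*Hsp90b1*, *Ly86* and the cathepsin genes *Ctsb*, *Ctsk*, *Ctsl* and *Ctss*, against 13.5% of all genes) and 5 of 14 in *Arntl*-/- cells (*Unc93b1* and the 4 cathepsin genes, against 15.2%), with none lower in either. After level correction 2 of 14 (*Ly86* and *Ctsk*) were higher in each genotype at 48 h, a share close to that of all genes. The median log2 difference of the 14 from 0 h was 0.16 at 24 h and 0.45 at 48 h in WT, and 0.25 and 0.51 in *Arntl*-/- cells. The cathepsins cleave endosomal TLRs, and apart from *Ctsk* those named are among the most highly expressed genes of these cells. Between the genotypes, *Ly86* was higher in *Arntl*-/- cells at 0 and 48 h (1 of 14 at each time, against 3.19 and 5.74%), and none of the 14 passed at 6 and 24 h. After level correction *Ly86* passed at 6 h too (0.67, from 0.58), and *Cnpy4*, a chaperone gene, at 48 h (0.60, also from 0.58).

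Of 20 adaptors and kinases downstream of the receptors, 19 were analyzed. *Ticam2* (TRAM, the adaptor that brings TRIF to TLR4) was 78.3, 96.1, 159 and 169 in WT and 86.2, 93.7, 178 and 186 in *Arntl*-/- cells. *Irak3* (IRAK-M, an inhibitory member of the IRAK family) was 424, 467, 758 and 722 in WT and 412, 536, 752 and 767 in *Arntl*-/- cells. Both were past 1.5-fold at 24 and 48 h in each genotype, *Irak3* at 48 h in WT cells not after level correction (0.57, from 0.77). With them, *Tirap* was higher at 24 h in WT cells (3 of 19 in all, against 8.69% of all genes, and 2 of 19 in *Arntl*-/- cells, against 7.8%). *Ticam1* (TRIF) was higher at 48 h in both (3 of 19 in each, against 13.5 and 15.2%, which is close to the share of all genes). The genes that were lower were *Tab1* at 48 h in WT (against 15.1%) and at 6 h in *Arntl*-/- cells (against 3.39%), neither after level correction (-0.50 and -0.53), and *Tirap* at 48 h in *Arntl*-/- cells (against 17.2%), 1 of 19 each. At 6 h none of the 19 was higher in either genotype, with *Ticam1* just inside the line in *Arntl*-/- cells (0.58) and past it after level correction (0.62). Level correction also put *Ikbkg* past the line at 48 h in *Arntl*-/- cells. Their median was 0.17 at 24 h and 0.04 at 48 h in WT, and 0.15 and 0.13 in *Arntl*-/- cells. *Myd88*, the adaptor that most TLRs share, was 342 to 413 in WT and 367 to 453 in *Arntl*-/- libraries and passed in no comparison. Between the genotypes only *Traf6*, the ubiquitin ligase downstream of MyD88, passed, at 48 h (1 of 19, against 5.74%), with 32.1 in WT and 56.7 in *Arntl*-/- cells.

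To see which genes had the profiles most like those of the 10, Pearson's r of the log2 level over the 8 libraries was computed against 10477 other genes. These are descriptions over 8 points that share scaling, depth and time, and no p is given. *Tlr2* was most like *Skil* (r = 0.996), *N4bp1* (0.989) and *Cers6* (0.982), and after level correction r was 0.993, 0.978 and 0.975. *Cd14* was most like *Mcl1* (0.991), *Tnfrsf1b* (0.988) and *Hipk2* (0.987), which after correction were 0.936, 0.874 and 0.576. *Tlr8* was most like *Mlxip* (0.990), *Ric1* (0.989) and *Actr8* (0.978), and *Tlr9* like *Zfp862-ps* (0.973), *Ube2b* (0.968) and *Fam160b2* (0.957). For *Tlr6* these genes were *Mbd5* (0.949), *Jmjd8* (0.944) and *BC026585* (0.936), and for *Tlr3* *Gfm2* (0.970), *Uxt* (0.932) and *Psmg1* (0.931). The genes that varied little had *Prpf4b* (0.927), *Slc38a2* (0.918) and *Trps1* (0.907) for *Tlr4*, *Fam107b* (0.970), *Naprt* (0.969) and *Ado* (0.95) for *Tlr1*, and *Aasdh* (0.971), *Prkra* (0.969) and *Traf6* (0.958) for *Ly96*. For *Tlr7* they were *Slc17a5* (0.980), *Etohd2* (0.954) and *Snap23* (0.941), which after correction were 0.586, 0.298 and 0.775. For the genes named whose corrected r is not given, it was 0.771 or higher. Among the 45 pairs of the 10 genes, r was above 0 for 25, and 3 reached 0.8, namely *Tlr2* with *Tlr8* (0.85), *Tlr9* with *Cd14* (0.82) and *Tlr2* with *Cd14* (0.80). After level correction these were 0.86, 0.44 and 0.93, and the pair with the highest r was *Tlr8* with *Cd14* (0.96, from 0.60). For pairs of all genes no such counts are given, so the counts of pairs do not set the 10 apart.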

How the data were processed

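PolyA RNA-seq of BMDMs was analyzed in 8 libraries, 1 for each of 2 genotypes at 4 times. The other 29 samples of the series (ChIP and input) were not analysed here, nor were 4 value columns that match no sample. The authors aligned reads to mm9 with STAR, counted them on RefSeq exons of both strands with HOMER (1 transcript per gene, with a setting of 3 tags per position), and deposited FPKM per 10000000 reads (versions not given in the sources used here). Of the lines, 1 was broken and was left out. Products of FPKM and length were whole numbers of a common step, the value of 1 read (100% of low values in each library), which gave reads and depths. These were used for intervals (95%) and the floor of 3 reads, and in no count test.

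Libraries were scaled by size factors from medians of ratios (0.918 to 1.13). Genes with at least 100 scaled reads in a WT library were analyzed, differences used a pseudocount of 0.1, and 1.5-fold, the line of the study's own plots, was counted. Named genes are the 10 genes, *Arntl*, the other TLRs, genes of the pathway lists past 1.5-fold, and the 3 genes most like each of the 10. Genes named otherwise (*Unc93b1*, *Myd88* and marker genes) were chosen after their values were seen. Alternatives were values as deposited, upper-quartile scaling, level correction (lowess, fraction 0.3), pseudocounts of 1 and 0.01 and other filters. The genes and lists were chosen with earlier results of these data known. A limma fit of genotype and time together on the log2 values (trended variances, Benjamini-Hochberg adjustment over 10487 genes, threshold 0.05) and a sign-flip test over 4 pairs were added after the data were seen. Steps were run on simulated data with known changes. These data had independent noise and no level-dependent difference between libraries, so the runs do not show how the steps handle such a difference. Promoters and coding sequences came from the mm9 genome and its GENCODE annotation. Calculations ran in Python 3.11.15 with scipy 1.17.1, statsmodels 0.14.6, pandas 2.3.3 and numpy 2.4.6, plots in matplotlib 3.10.9 and the fit in limma 3.58.1 (R 4.3.3).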

Additional observations from a re-analysis of the deposited data

Results flagged for a closer look

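For *Cd14* and *Tlr3* the change after KLA had opposite directions in the 2 genotypes, with intervals from the reads that excluded 0 on both sides. At 6 h against 0 h, *Cd14* had a log2 difference of -0.23 (interval -0.27 to -0.18) in WT and 0.48 (0.44 to 0.53) in *Arntl*-/- cells, which differ by 0.71. The difference between the genotypes was not tested, since each side rests on 2 libraries. Under level correction the 2 values were 0.35 and 0.22, with the same direction, and as deposited they were -0.07 and 0.42. At 48 h against 0 h, *Tlr3* had 0.39 (0.13 to 0.65) in WT and -0.31 (-0.57 to -0.05) in *Arntl*-/- cells, which differ by -0.70, and this was not tested either. Under level correction these were 0.51 and -0.15, and as deposited 0.25 and -0.48.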

How the results depend on the processing

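Of the 10 counts of genes past 1.5-fold, upper-quartile scaling and pseudocounts of 1 and 0.01 moved none beyond 1.5 times. As deposited, the count was 2 at 6 h in WT (*Tlr2* and *Tlr3*, against 0) and 2 at 6 h in *Arntl*-/- cells (*Tlr2* and, lower, *Tlr9*, against 1). Under level correction it was 1 between the genotypes at 24 h (*Tlr9*, against 0), 1 at 6 h in WT (*Tlr2*) and 1 at 24 h in *Arntl*-/- cells (*Tlr2*, against 2), and without *Cd14* 2 at 24 and 48 h in WT (against 3). Of the 100 differences, the sign changed for 11 as deposited, 8 under upper-quartile scaling and 17 under level correction, none with an uncorrected size above 0.23. The size of a difference moved most for *Cd14*. The share of all genes past 1.5-fold (4.67 to 32.5%) was 18.9 to 41.6% for genes with an FPKM of at least 1, over 1.5 times higher in 8 of 10 comparisons, and 17.2 to 31.9% without a filter, over 1.5 times higher in 6. As deposited, the median of all genes shifted by over 0.1 at 6 h between the genotypes (-0.13), at 6 h in WT (0.13) and at 48 h in WT (-0.13) and *Arntl*-/- cells (-0.18). The share of higher among all calls was then 12.0% (43.5% with size factors), 90.2% (59.9%), 32.6% (47.1%) and 29.5% (46.9%) in these, 77.1% (61.7%) between the genotypes at 0 h and 34.2% (47.7%) at 6 h in *Arntl*-/- cells. Under level correction it was 55.2% at 6 h between the genotypes and 62.1% at 6 h in *Arntl*-/- cells. At 48 h in *Arntl*-/- cells the count of 4 was 3 as deposited (without *Tlr6*) and 3 under level correction (without *Cd14*). Calls of single genes of the pathway lists lost or gained under level correction are given with them. Replicate numbers give no paired analysis, since no condition had more than 1 library. In the fit of genotype and time, which was added after the data were seen, the count between the genotypes was 0 under every alternative run. Its counts at 6, 24 and 48 h against 0 h were 1, 2 and 3 (1, 3 and 2 as deposited, 1, 3 and 3 under level correction, and 1, 2 and 4 under upper-quartile scaling), and without 1 library each they ranged from 0 to 1, from 1 to 3 and from 1 to 3 (a library left alone at its time is assumed to vary like the others). At 48 h *Tlr8* passed under upper-quartile scaling (adjusted p = 0.048, limma, against 0.097), and without the WT library at 48 h *Tlr6* did. Depth limited *Ly96* most, with 75 to 328 reads.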
